A study of Rattus norvegicus with 16 samples.

Results

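The effect of RGD on rat neural stem cells at 12 h was read from 8 of the 16 libraries of the series, those taken at 12 h. They were chosen by their labels and fall into 4 with RGD and 4 without. The cells were adult rat hippocampal neural progenitors, which can form neurons and glia in culture, held inside hyaluronic acid hydrogels. All 8 gels were kept in the same mixed differentiation medium, DMEM-F12 with N2 supplement, 1 μM retinoic acid and 1% FBS, so the libraries without RGD had also received these differentiation signals. The 4 groups of 2 libraries were soft gel (100 Pa) without RGD, soft gel with RGD, stiff gel (1.2 kPa) without RGD and stiff gel with RGD. The time label gives 12 h, while the sample names code this time as day 0. The labels give neither the RGD density nor the origin of the cells by animal or culture.

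RGD is the arginine-glycine-aspartate motif of fibronectin and other matrix proteins. Integrins, receptors made of an alpha and a beta subunit, bind it and link the matrix to the actin cytoskeleton, and their clustering activates focal adhesion kinase and Src family kinases. Hyaluronic acid carries no RGD motif and is bound by other receptors such as CD44, so that coupling RGD to a hyaluronic acid gel adds an integrin ligand to it.

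The deposited table gives a count for each of 41078 Ensembl transcripts, of which 14535 had at least 1 count at 12 h and 7345 passed the filter on low counts. The libraries held between 1829779 and 3420786 counts. The most abundant transcript of the series took 35.53 to 41.96% of each of them, and the second 10.03 to 13.3%. Totals averaged 2471560 ± 698600 with RGD and 2279620 ± 180800 without (SD, n = 4 each). The exact two-sided permutation p was 0.771, where 0.0286 is the smallest possible. This permutation p was 0.971 adjusted over 4 measures, which were totals, transcripts detected and the shares of these 2 transcripts. The permutation pools the stiffnesses. In soft gels both libraries with RGD had fewer counts (1829779 and 2090015) than both without (2157015 and 2137103). In stiff gels both had more (2545660 and 3420786, against 2294844 and 2529499). Transcripts detected split in the same way. Depth was thus aligned with RGD within each stiffness, and with the difference between the RGD effects in stiff and soft gels. Counts thinned to the lowest total are among the alternatives below. The identifiers could not be paired with gene names, since none of the 41078 matched a reference table of 47357 rat genes. The integrin, adhesion and lineage lists, and the check of the cell type by its markers, were therefore not tested, and transcripts are named by identifier. In bulk RNA, a change in the share of cells that contain a transcript and a change in its level per cell cannot be told apart.

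Among the 8 libraries, 1 replicate pair stood apart. Gels without RGD are called RGD-free here, and the 2 RGD-free stiff libraries differed most from each other by the spread of log2 differences. Over the 2278 abundant transcripts (mean count of at least 100) the SD of the log2 difference between them was 0.354, against 0.208, 0.247 and 0.266 in the other 3 replicate pairs. By the chi-square of counts per degree of freedom, which grows with depth, the stiff pair with RGD was highest (6.25), followed by the RGD-free stiff pair (5.35). RGD-free stiff replicate 1 differed less from the stiff gels with RGD, with SDs of 0.227 and 0.246, than from its own replicate. For replicate 2 these values were 0.335 and 0.272. Pairs of libraries that differed only in RGD had a median SD of 0.253, which is close to the 0.256 of replicates, and pairs that differed only in stiffness had 0.358. RGD is a property of the gel, so no transcript can check the label. The total of replicate 1 (2294844 counts, 10857 transcripts detected) was the lowest of the stiff libraries. The part of depth in its position was not tested.

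With RGD 1 transcript rose and 1 fell at 12 h, 0.0136% each and 0.0272% together of the 7345 tested. ENSRNOT00000020475.4 was 2.21-fold higher with RGD. ENSRNOT00000005361.3, the 57th most abundant of the tested transcripts, stood at 0.705 times its level without RGD. Both had the same direction in soft and in stiff gels, and for both the 4 libraries with RGD lay outside the range of the 4 without. Both were called from these same libraries, which favours such traits, so they are no separate support.

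ENSRNOT00000020475.4 was a transcript of modest abundance, with 18 to 79 counts per library. In soft gels its level was 12.4 and 9.25 CPM (counts per 1e6 of the library, scaled between libraries) without RGD, and 25.0 and 22.8 CPM with RGD. In stiff gels it was 15.1 and 7.20 CPM in the RGD-free libraries, against 26.7 and 22.5 CPM with RGD. The lowest library with RGD was thus above the highest without, and the libraries with RGD were close together whatever the stiffness. Over both stiffnesses the level was 24.3 ± 1.96 CPM with RGD and 11.0 ± 3.49 CPM without (SD, n = 4 each). The log2 fold change was 1.14 ± 0.23 (SE), with a 95% interval of 0.69 to 1.60 and an edgeR adjusted p of 0.0212. It did not pass for stiffness in the same fit, where the log2 difference between stiff and soft gels was 0.03 ± 0.23 (SE, edgeR adjusted p = 0.96).

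ENSRNOT00000005361.3 had 1254 to 2834 counts per library. Without RGD its level was 990.0 and 968 CPM in soft gels and 875 and 1075 CPM in stiff gels. With RGD it was 712 and 782 CPM in soft gels and 586 and 684 CPM in stiff gels. Every library with RGD was below every library without. The means were 691 ± 81.5 CPM with RGD and 977 ± 82.1 CPM without (SD, n = 4 each), and the log2 fold change was -0.51 ± 0.09 (SE; 95% interval -0.69 to -0.32, edgeR adjusted p = 0.0138). Nor did this transcript pass for stiffness, with a log2 difference of -0.12 ± 0.09 (SE, edgeR adjusted p = 0.516).

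The next transcript by p in each direction missed the threshold, although its groups did not overlap either. ENSRNOT00000020192.5 had 20.6, 12.3, 17.3 and 19.3 CPM in the 4 RGD-free libraries, and 29.5, 27.6, 35.5 and 28.5 CPM in those with RGD (soft gels first). Its log2 fold change was 0.79 ± 0.19 (SE, edgeR adjusted p = 0.301). ENSRNOT00000079889.1 had 50.4, 46.8, 45.0 and 46.6 CPM in the RGD-free libraries, and 30.1, 30.3, 32.1 and 27.6 CPM with RGD, with a log2 fold change of -0.65 ± 0.16 (SE, edgeR adjusted p = 0.266). The levels of the second were tight in both groups, with SDs of 1.86 CPM with RGD and 2.27 CPM without.

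**Figure D1:**
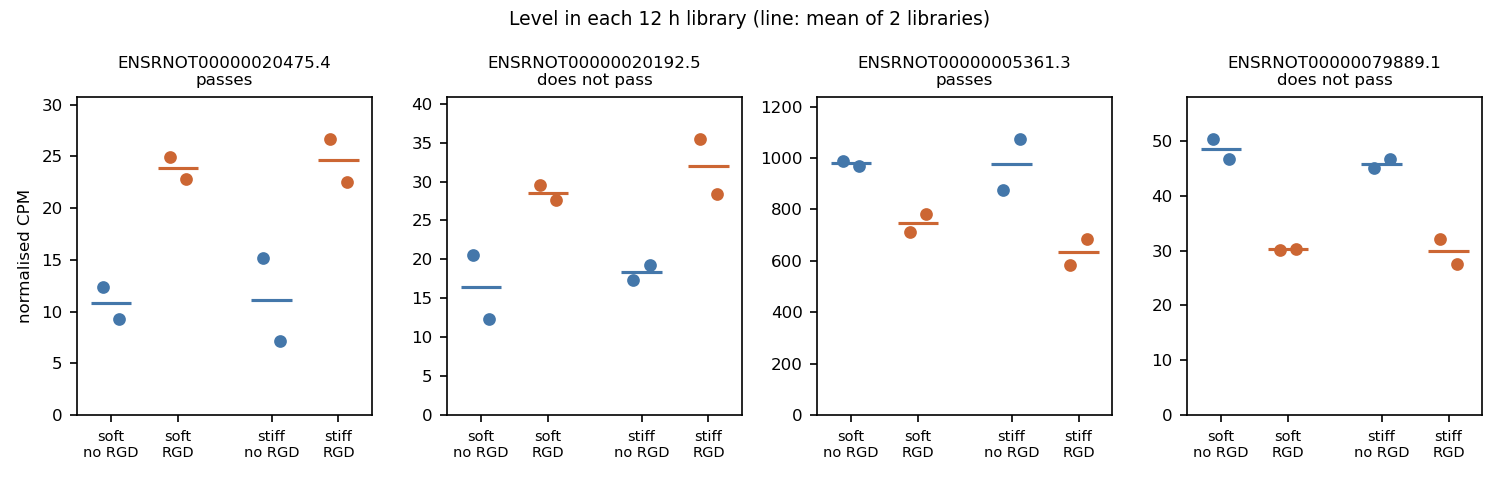
Normalised CPM (vertical axis, from 0) of 4 transcripts, the 2 with the smallest p in each direction, in each 12 h library, by gel stiffness and RGD; points are libraries and lines are means of 2. In each panel all 4 libraries with RGD (orange) lie on one side of the 4 without (blue), which the choice by p favours. The first and the third panel show the transcripts that passed the threshold.

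Calls came from edgeR's quasi-likelihood fit of the 8 libraries with stiffness as a covariate and Benjamini-Hochberg adjustment, and both calls depended on single libraries and on the model. Leaving out RGD-free soft replicate 2, RGD soft replicate 1, RGD-free stiff replicate 2 or RGD stiff replicate 1 gave 0 calls (334 to 352 at an unadjusted p under 0.05). Leaving out RGD soft replicate 2 gave 1 call, and leaving out RGD-free stiff replicate 1 gave 25. The count was also 0 with no stiffness term or when all 16 libraries shared the spread (258 and 249 at an unadjusted p under 0.05). DESeq2 called only ENSRNOT00000005361.3 and limma-voom both. The direction of both transcripts was the same in all 20 alternative fits of each, with the rise losing its call in 9 of them (edgeR, DESeq2 and limma adjusted p 0.000326 to 1) and the fall in 6 (0.000231 to 1).

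Across all 7345 transcripts the fitted RGD effect over both stiffnesses at 12 h was small. An unadjusted p under 0.05 was found for 395 transcripts, 5.38%, where uniform p-values would give 367, and 192 of them were higher and 203 lower with RGD. The scaling between libraries centres the changes near 0, so that this balance is no measure of direction. The median absolute log2 fold change was 0.134, and 90% of transcripts were below 0.418. A fitted change of more than 2-fold was found for 37 transcripts, and 34 of these had a mean of under 20 counts, where the error is largest.

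The intervals set an upper bound on the RGD effect over both stiffnesses that the data allow. They do not bound the effect within soft or stiff gels alone. The 95% interval lay wholly within a 2-fold change either way for 6208 transcripts (84.5%) and within 1.5-fold for 3803 (51.8%). Among the 2278 abundant transcripts, it lay within 1.5-fold for 2171 (95.3%), and the largest fitted log2 change was 0.593. Among the 1704 transcripts with a mean of under 20 counts, 42.1% had an interval within 2-fold, and for the others it reached past 2-fold. Counts were also simulated with the same depth and fitted spread, and 200 of the 7345 transcripts were changed. The test recovered 71.2% of 2-fold and 39.8% of 1.5-fold changes there. The simulation held no stiffness effect and no replicate pair that stood apart. Recovery with fewer changed transcripts, where the adjusted threshold is stricter, was not tested.

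**Figure D2:**
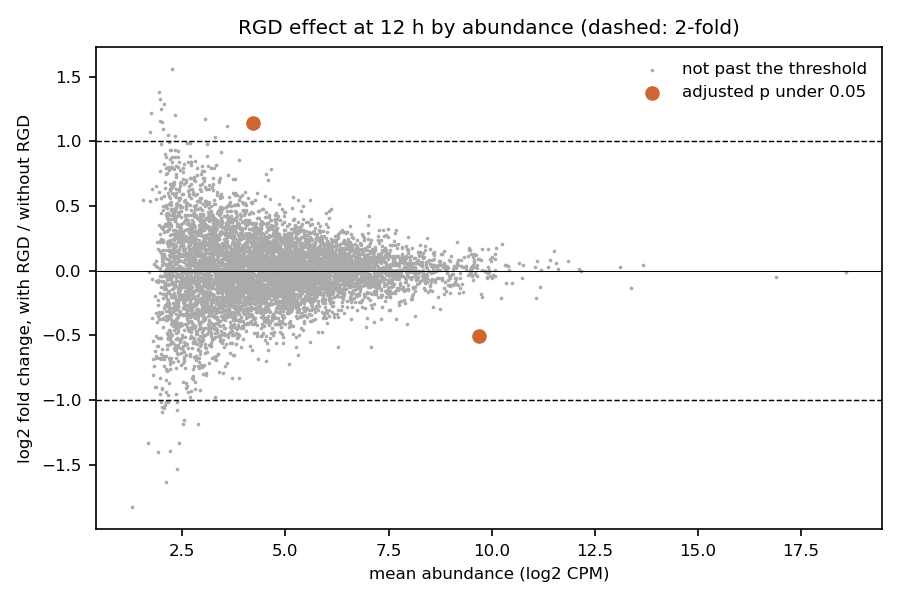
Log2 fold change with RGD over without RGD at 12 h (vertical axis) against mean abundance in log2 CPM (horizontal axis) for the 7345 tested transcripts; dashed lines mark 2-fold. The cloud is centred near 0 and narrows as abundance rises, and the 2 transcripts past the threshold (orange) lie at its edges, one at modest and one at high abundance.

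Transcripts present in one state of the gel and absent in the other were few and scarce. Of the 14535 transcripts with a count at 12 h, 13 had at least 1 count in each library with RGD and none in those without, and 3 showed the reverse. None of these 16 reached more than 8 counts in a library, and none had enough counts to be tested. No tested transcript was therefore present in each library of one kind and absent from each of the other.

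The same 8 libraries and the same model gave 506 calls for stiffness (6.89% of 7345), 311 higher and 195 lower in stiff gels. This contrast rests on as many libraries a side as that of RGD. The 4 stiff libraries lay wholly outside the range of the 4 soft ones for 839 transcripts (11.4%). The 4 libraries with RGD lay outside the range of those without for 156 (2.12%), 81 higher (1.1%) and 75 lower (1.02%). The difference between these counts was not tested. If all 8 libraries were exchangeable, each of the 70 splits into 4 and 4 would be equally likely. A share of 0.0286 would then be separated in either direction, and the share for RGD was not above it. The calls for stiffness show that the libraries were not exchangeable for every transcript. A stiffness difference widens the range within each RGD group, so that fewer transcripts would be separated by RGD without an RGD effect. The comparison with 0.0286 therefore cannot decide whether the share for RGD exceeded that level.

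In the principal components of log2 CPM, none of the 7 separated the libraries with RGD from those without, whereas the first, with 26.8% of the variance, separated soft from stiff gels. The second component, with 16.6%, came nearest for RGD. In soft gels its values were 8.59 and 11.75 without RGD and -9.90 and -10.68 with RGD. In stiff gels they were -12.89 (replicate 1) and 21.05 (replicate 2) without RGD, and -10.54 and 2.62 with RGD. On this component RGD-free stiff replicate 1 lay on the side of the libraries with RGD, below all 4 of them, and its own replicate lay farthest from them.

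**Figure D3:**
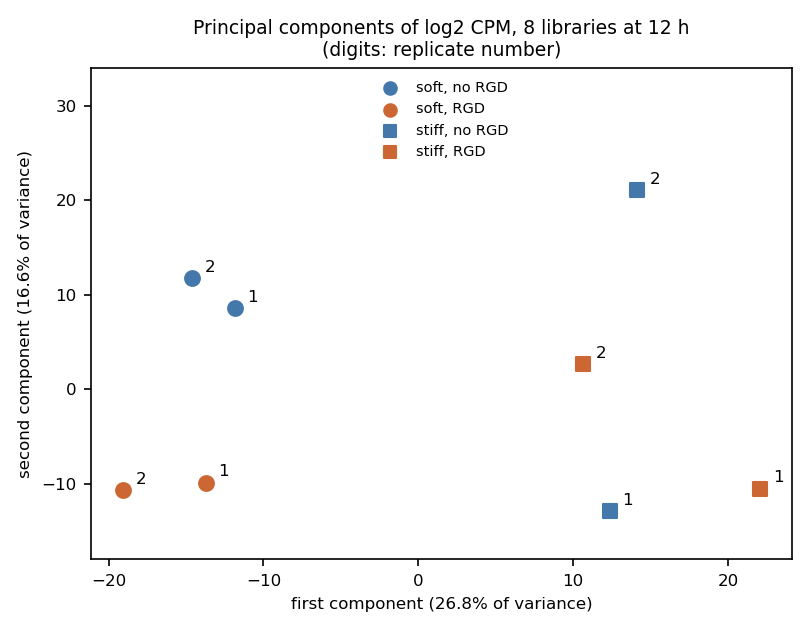
Positions of the 8 libraries on the first (horizontal) and second (vertical) principal component of log2 CPM; circles are soft and squares stiff gels, orange with RGD and blue without, and digits are replicate numbers. Stiffness divides the libraries from left to right, and RGD divides them from top to bottom in the soft gels only, where both libraries with RGD lie near -10 on the second component.

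Leaving out RGD-free stiff replicate 1 gave the most calls. Without it, 25 transcripts passed edgeR's threshold for RGD at 12 h, 8 higher and 17 lower, and both of the transcripts called with all 8 libraries were among them. ENSRNOT00000079889.1 also passed then (edgeR adjusted p = 0.0472, range over its alternatives 0.0472 to 1). The 25 were chosen by this omission. All 25 had the same direction in the full fit, with a median absolute log2 change of 0.432 there and of 0.634 without the library. At 48 h, in libraries that this fit did not use, 24 of the 25 had the same direction, with a median log2 change of 0.47 in the direction seen at 12 h. Over all 7157 transcripts tested in both of these fits, 60.7% had the same direction at both times. In the fit of all 8 libraries, 376 transcripts at an unadjusted edgeR p under 0.05 were also tested at 48 h. Of these, 67.3% had the same direction at both times. Transcripts are not independent, so the 25 do not count as 25 separate results. When RGD-free stiff replicate 2 was left out instead, 0 passed (335 at an unadjusted p under 0.05), and the share with the same direction at 48 h over all transcripts was 51.6%. The labels offer no ground for preferring one replicate to the other, and the values with both are the ones given elsewhere.

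Within soft gels alone, 2 libraries against 2, edgeR gave 0 calls, with 285 at an unadjusted p under 0.05 (3.88%), and both DESeq2 (117 at an unadjusted p under 0.05) and limma-voom (238) gave 0. Uniform p-values would give 367, more than the edgeR count. The smallest p among higher transcripts with 20 or more counts was that of ENSRNOT00000087180.1. It stood at 49.0 and 44.2 CPM in RGD-free gels, and RGD gels had 77.2 and 72.8 CPM (log2 0.68 ± 0.20, SE; edgeR adjusted p = 0.998). ENSRNOT00000020475.4 was the next, with a log2 change of 1.13 ± 0.34. Among lower transcripts the smallest p was that of ENSRNOT00000016629.5, which had 31.1 and 37.5 CPM in RGD-free gels against 13.6 and 18.1 CPM with RGD (log2 -1.11 ± 0.30). ENSRNOT00000026106.5 followed, with 19.7 and 20.5 CPM in RGD-free gels against 9.09 and 6.90 CPM with RGD (log2 -1.33 ± 0.38). None of these passed.

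Within stiff gels alone edgeR also gave 0 calls, with 244 at an unadjusted p under 0.05 (3.32%), and 0 came from DESeq2 (84 unadjusted) and from limma-voom (282 unadjusted). Here too the edgeR count lay below the 367 of uniform p-values. ENSRNOT00000024011.5 had 10.8 and 5.31 CPM in RGD-free gels against 22.6 and 19.0 CPM with RGD (log2 1.38 ± 0.34, SE; edgeR adjusted p = 0.394). ENSRNOT00000091687.1 had 5.19 and 8.72 CPM in RGD-free gels against 27.0 and 14.2 CPM with RGD (log2 1.54 ± 0.38, edgeR adjusted p = 0.394). ENSRNOT00000005361.3 had the smallest p of all in stiff gels, with a log2 change of -0.62 ± 0.14 (edgeR adjusted p = 0.339). ENSRNOT00000012286.4 had 67.5 and 83.0 CPM in RGD-free gels against 43.9 and 53.1 CPM with RGD (log2 -0.63 ± 0.19). Without RGD-free stiff replicate 1, 60 transcripts passed in stiff gels, 24 higher and 36 lower, among them 3 of these 4 (not ENSRNOT00000091687.1). That comparison sets 1 RGD-free library against 2, and the lone library is assumed to vary like the other groups. The transcripts that passed there were chosen by this omission. The choice favours transcripts whose level in the omitted library was nearer to the stiff RGD libraries than to its own replicate. Such a position, seen for 56 of them, is therefore no separate result. Without RGD-free stiff replicate 2 the count was 2, and without RGD stiff replicate 2 the count was 1.

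The difference between the RGD effects in stiff and soft gels passed for 0 transcripts by edgeR (193 at an unadjusted p under 0.05, 2.63%), by DESeq2 (66) and by limma-voom (193). A different response to RGD at the 2 stiffnesses was therefore not shown for any transcript. The unadjusted edgeR count lay below the 367 that uniform p-values would give, and the cause of this was not tested. With 2 libraries a group, 0 calls do not show an equal response. Leaving out either RGD-free stiff replicate leaves 1 library in that group. What passed then differed in direction between these omissions, and none of the transcripts named next was among it. ENSRNOT00000087180.1 had a log2 change of 0.68 in soft and of -0.31 in stiff gels, a difference of -0.99 ± 0.27 (SE; 95% interval -1.54 to -0.44, edgeR adjusted p = 0.998). ENSRNOT00000029546.5 had 0.52 in soft and -0.30 in stiff gels. The opposite order was seen for ENSRNOT00000023530.6, with -0.50 in soft and 0.31 in stiff gels, and for ENSRNOT00000036061.7, with -1.28 and 0.42. For the transcripts past the threshold over both stiffnesses the difference was 0.02 ± 0.47 (ENSRNOT00000020475.4) and -0.23 ± 0.20 (ENSRNOT00000005361.3), with 95% intervals of -0.93 to 0.97 and -0.62 to 0.16.

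Across the 2278 abundant transcripts, the RGD effects in soft and in stiff gels, measured in different libraries, correlated with Pearson r = 0.183 and Spearman rho = 0.156, and 54.7% had the same direction. Over all 7345 tested transcripts r was 0.0774, rho was 0.08 and 52.6% had the same direction. Transcripts are not independent replicates. Pearson r was 0.266 without RGD-free stiff replicate 1, -0.0857 without RGD-free stiff replicate 2, 0.0591 without RGD soft replicate 1 and 0.117 without RGD stiff replicate 1. Its sign changed only when RGD-free stiff replicate 2 was left out.

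**Figure D4:**
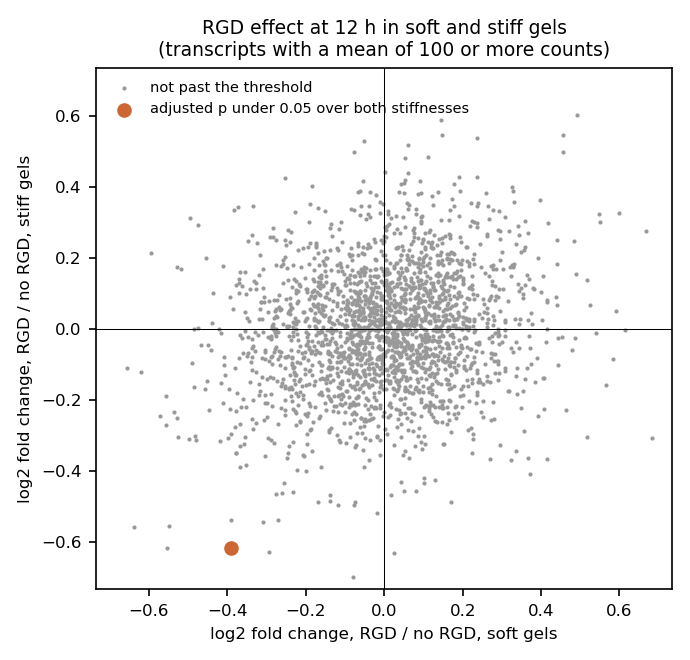
Log2 fold change of RGD in soft gels (horizontal axis) against that in stiff gels (vertical axis) for the 2278 abundant transcripts (mean count of at least 100). The points form a cloud around 0 with little slope (r = 0.183), and ENSRNOT00000005361.3 (orange) lies at its lower left.

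At 48 h the same comparison was made in the other 8 libraries of the series, which share none with those at 12 h. ENSRNOT00000020475.4 had 21.3 ± 9.54 CPM with RGD and 10.2 ± 4.86 CPM without at 48 h (SD, n = 4 each), a log2 change of 1.01 ± 0.29 (SE; unadjusted p = 0.00269, edgeR adjusted p = 0.181). ENSRNOT00000005361.3 had 1848 ± 375 CPM with RGD and 2478 ± 203 CPM without (SD, n = 4 each), a log2 change of -0.42 ± 0.18 (SE; unadjusted p = 0.0307, edgeR adjusted p = 0.324). Both kept their direction, though by then their groups overlapped. A direct test took the log2 RGD effect at 48 h less that at 12 h. It gave -0.15 ± 0.41 for the first (95% interval -0.99 to 0.69) and 0.08 ± 0.21 for the second (-0.36 to 0.52). The edgeR adjusted p was 0.972 for both. ENSRNOT00000020192.5 had a log2 change of 0.45 ± 0.26 and ENSRNOT00000079889.1 of -0.43 ± 0.18 at 48 h (SE), and neither passed there (edgeR adjusted p = 0.457 and 0.308).

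**Figure D5:**
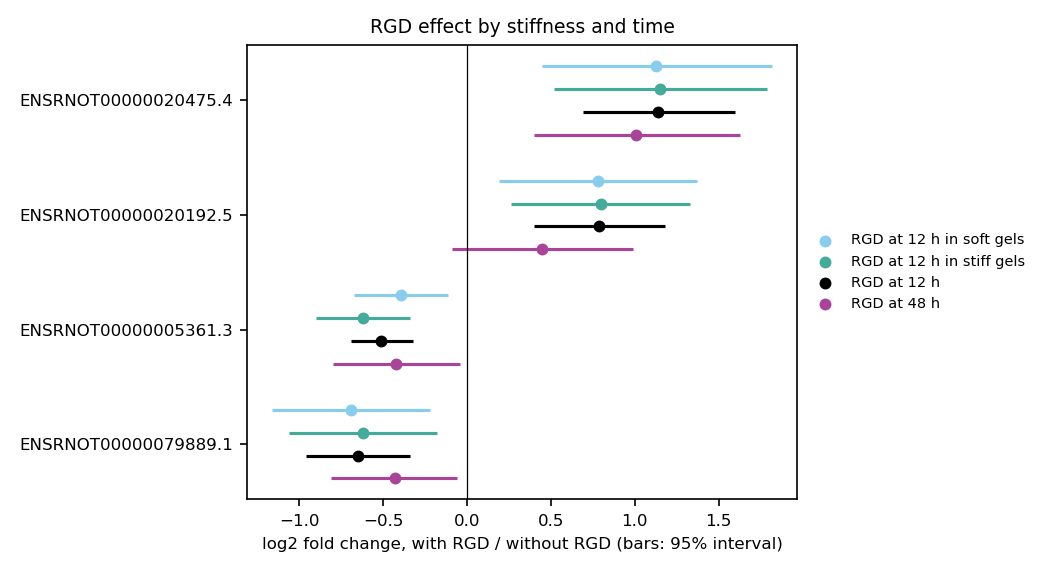
Log2 fold change with RGD over without RGD (horizontal axis) with its 95% interval for 4 transcripts, in soft gels and stiff gels at 12 h, over both at 12 h, and over both at 48 h. All 16 estimates keep the direction of their transcript, and only that of ENSRNOT00000020192.5 at 48 h has an interval that includes 0. The transcripts were chosen by p over both stiffnesses at 12 h, which favours this for the 12 h estimates. Only the estimates at 48 h come from libraries that the choice did not use.

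The unadjusted count was lower at 12 h than at 48 h. At 48 h edgeR called 3 of 7391 transcripts (0.0406%; 2 higher, 0.0271%, and 1 lower, 0.0135%), while 959 (13%) had an unadjusted p under 0.05 and 458 (6.2%) had groups that did not overlap, against 5.38% and 2.12% at 12 h. The difference between these shares was not tested. The count at 48 h was 49 without RGD stiff replicate 1, 10 without RGD soft replicate 1, 6 without RGD-free stiff replicate 2, and 0 without RGD soft replicate 2 or RGD-free stiff replicate 1, all libraries of that time. DESeq2 called 51, and 146 passed with no filter on low counts.

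The direct test of whether the RGD effect differed between the times was also read over all transcripts. It called 1 of 7876 transcripts, with the effect higher at 48 h (0.0127%; 506 at an unadjusted p under 0.05, 6.42%), and DESeq2 and limma-voom called the same one, ENSRNOT00000020505.3. Its 12 h side was a small difference in the opposite direction to that at 48 h: 82.4, 68.3, 72.6 and 73.9 CPM without RGD against 64.2, 65.9, 61.5 and 60.8 CPM with RGD. The groups did not overlap, but the log2 change of -0.24 ± 0.13 did not pass at 12 h (SE; unadjusted p = 0.0629, edgeR adjusted p = 0.935). The call of the difference was lost when RGD-free soft replicate 1 at 12 h was left out (edgeR adjusted p = 0.0616, range over all alternatives 1.38e-05 to 0.0616). ENSRNOT00000059127.3 came next, with a log2 change of -0.13 ± 0.12 at 12 h and 0.86 ± 0.17 at 48 h, and did not pass (edgeR adjusted p = 0.25). In the other direction, ENSRNOT00000012440.7 had 0.77 ± 0.33 at 12 h and -0.81 ± 0.27 at 48 h. ENSRNOT00000086548.1 had 0.58 ± 0.20 and -0.53 ± 0.21, and neither passed (edgeR adjusted p = 0.483 for both).

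The 81 transcripts whose 4 libraries with RGD all lay above the others at 12 h had a median log2 change of 0.453 at 12 h, which their choice fixes as positive. At 48 h 75 of them were tested, and these had a median of 0.235, with 53 (70.7%) in the same direction. For the 75 that lay below at 12 h the median was -0.475. The 72 of these tested at 48 h had a median of -0.071, with 43 (59.7%) in the same direction. Over all 6994 transcripts tested at both times, 57.1% had the same direction and the median at 48 h was 0.00855. Groups that did not overlap in the same direction at 48 h were found for 3 of the first set (4%) and 1 of the second (1.39%). Over all 6994 transcripts the shares at 48 h were 2.8% higher with RGD (196) and 3.46% lower (242), so that both counts were near this background. Across the abundant transcripts the RGD effects at 12 h and 48 h had a Pearson correlation of 0.299, against 0.17 over all 6994. Across the abundant ones it was 0.466 without RGD-free stiff replicate 1 at 12 h, and -0.0164 without RGD-free stiff replicate 2.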

How the data were processed

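RNA was measured by 3′ tag sequencing. The authors deposited whole-number counts per Ensembl transcript, without normalization. HISAT2 2.1.0 and HTSeq, with FastQC and build rn6, are listed in the submitters' processing notes. What annotation release, strand setting and molecular identifiers were used the sources used here do not give, so isoforms and overlapping genes may share reads. The members, lists and tests were chosen with earlier results of these data known.

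Transcripts were filtered with edgeR's filterByExpr by group (minimum count 10, total 15), leaving 7345 with 99.43 to 99.56% of each 12 h library's counts, and scaled by TMM. The quasi-likelihood test (edgeR 4.0.16, R 4.3.3, robust) used RGD and stiffness over the 8 libraries at 12 h, giving a biological coefficient of variation of 0.123. Soft gels, stiff gels and their difference came from 1 mean per group, RGD by time from all 16 libraries. Calls are Benjamini-Hochberg adjusted p under 0.05. The SE is the log2 change over the square root of F, an approximation on which the 95% intervals rest. Log2 CPM used a prior count of 2. Named transcripts have a mean of 20 or more counts and, since fewer than 2 passed in each direction, the smallest p. No label says that replicates were separate cultures, so p-values measure only how these samples spread, which may be technical. Replicates differed by more than sampling noise (chi-square per degree of freedom 2.68 to 6.25). Alternatives were DESeq2 1.42.0, limma-voom (limma 3.58.1), RLE size factors, other filters, no robust estimation, a replicate block, thinned counts, other models and each library left out. Correlations with libraries left out were chosen after seeing the data. The fit was tested on simulated data (5 draws), where 6.25% of calls were false.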

Additional observations from a re-analysis of the deposited data

Results flagged for a closer look

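ENSRNOT00000020505.3 differed between the times in its response to RGD by a test of the difference itself, with a log2 difference of 1.42 ± 0.22 between 48 h and 12 h (SE; by edgeR the adjusted p was 0.00516). In 2 of 42 groups of 4 libraries at 12 h, 1 library stood far from the others by Dixon's ratio (its gap to the nearest over the group's range), where chance gives about 1 in 20. ENSRNOT00000026106.5 had 11.7 CPM in RGD-free stiff replicate 1, against 19.7, 20.5 and 19.7 CPM in the other libraries from gels without RGD (ratio 0.903). ENSRNOT00000012440.7 had 9.48 CPM in replicate 2 of that group, against 3.66, 4.11 and 3.46 CPM in the others (ratio 0.892).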

How the results depend on the processing

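For RGD at 12 h, 9 of 20 alternatives gave a count within 1.5 times the 2 calls. The count was 1 with DESeq2, 4 with no filter on low counts, 1 with counts thinned to the lowest total, 0 with all 16 libraries fitted, 0 with no stiffness term, and 0 to 25 when single libraries were left out. With no filter more transcripts with few counts were tested; the cause of the other shifts was not tested. In soft gels all 18 alternatives gave 0. In stiff gels leaving out libraries gave 0 to 60, and for the difference between stiffnesses 0 to 1. At 48 h the 3 calls became 51 with DESeq2, 146 with no filter, 1 with a filter of 10 CPM in 2 libraries, 1 with no robust estimation, 5 with thinned counts, 1 with 1 mean per group, and 0 to 49 with libraries left out. For RGD by time the count of 1 became 7 with no filter and 0 to 3 with libraries left out. The correlations across transcripts reversed without RGD-free stiff replicate 2 at 12 h. Leaving out libraries gave -0.0857 to 0.266 between stiffnesses and -0.0164 to 0.466 between times.

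The replicate block, with the replicate number as a term, gave 2 calls for RGD at 12 h, the same transcripts as without it. It gave 1 in stiff gels (ENSRNOT00000005361.3, edgeR adjusted p = 0.0495, range over its alternatives 0.0012 to 1), 0 in soft gels, 0 for the difference between stiffnesses, 79 at 48 h and 1 for RGD by time. The labels do not say what the numbers share: at 12 h the deviations of same-numbered libraries correlated by -0.04 to 0.27. Depth limits the transcripts with a mean of under 20 counts, whose 95% interval had a median half-width of 1.71-fold, against 1.14-fold for the 376 most abundant.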
